A study of Mus musculus with 2 samples.

Results

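The Myo1d to Zfp207 stretch is an 845 kb piece of mouse chromosome 11, from position 79848193 to position 80693192 in mm9, seen in 4C-seq from the promoter of Ccl2. It begins 1155 kb and ends 2000 kb below the viewpoint at position 81848193, just past the large gene Asic2, and its members are the DpnII fragment ends that have 1 copy in the genome and whose fragment centre lies between these borders. There are 2984 such ends, of 424612 in the whole Ccl2 profile of chromosome 11 and 921358 in the series. Membership rests on position alone, with distances counted from the fragment that carries the most reads of the profile. The stretch was picked with the profile known, so its contrast with its neighbours is a description of 1 library.

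The library came from primary bone marrow-derived macrophages of strain C57BL/6, grown from marrow in L929-conditioned medium. The labels call the cells day 7 of differentiation in one field and give 6 days of culture in another, mark them UT and name no treatment or genetic change. In 4C-seq, cross-linked chromatin is cut, here with DpnII, ligated and cut again with a second enzyme (Csp61 in the labels), and inverse PCR from one viewpoint then recovers what was ligated to it. There is 1 library with the Ccl2 viewpoint and 1 with a Jun viewpoint on chromosome 4, so no comparison below has a replicate check and no p-value is given. Only genomic DNA was measured, so the cell type could not be set against marker genes, and the labels name no number of animals or pooling.

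Ccl2 encodes a chemokine that draws monocytes to sites of inflammation, and macrophages are one of its main sources. Chromosomes are folded into domains within which contacts are frequent, and contact counts usually fall with distance from a viewpoint. Where a distant stretch is seen more often than nearer chromatin, the fall with distance is interrupted, and gene-rich and gene-poor pieces of a chromosome are known to differ in how they fold. A bulk profile cannot tell contact in fewer cells from rarer contact in every cell.

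The stretch holds many genes, where the chromatin before it lies within the single gene Asic2. RefSeq places 14 protein-coding genes in it, with 6 long non-coding RNA genes and 1 pseudogene. In order from the side of Ccl2 they are Spaca3, Tmem98, Myo1d, Cdk5r1, Psmd11, Zfp207, 5730455P16Rik, Rhbdl3, Rhot1, Rnf135, Adap2, Tefm, Atad5 and Crlf3. The genes were placed by their GRCm38.p6 coordinates, all moved by a single shift that was fitted on the fragments themselves. DpnII cuts at GATC, so each GATC in a RefSeq promoter sequence must be a fragment border. Of 83 such sites within 3 Mb of Ccl2, 83 lay within 16 bp of a border in the file at a single shift between the builds, against at most 24.1% of sites at any other shift searched (median 7.23%). Of these sites 13 belong to the stretch, and 13 fell on a border. The shift was the one with the most sites on a border among those searched, up to 300 kb either way. The match therefore chose the placement and is not a separate test of it. Asic2 ends 1154.5 kb from the viewpoint, just before the stretch, and Suz12, a subunit of Polycomb repressive complex 2, begins 2000.6 kb from it, just beyond. All gene distances below are in kb from the viewpoint.

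Promoter sequences show what the assay could see at a gene start. The 4 printed here, from RefSeq in GRCm38.p6, were chosen because they carry pairs of cut sites or belong to the genes with the highest share of covered ends, and GATC is in capitals. The first is Tmem98 (chr11:80810116-80810415, plus strand) and the second Adap2 (chr11:80153912-80154211, plus strand), each with a pair of DpnII sites. The third is Psmd11 (chr11:80428365-80428664, plus strand) and the fourth 5730455P16Rik (chr11:80377966-80378265, minus strand), both with none.
Tmem98: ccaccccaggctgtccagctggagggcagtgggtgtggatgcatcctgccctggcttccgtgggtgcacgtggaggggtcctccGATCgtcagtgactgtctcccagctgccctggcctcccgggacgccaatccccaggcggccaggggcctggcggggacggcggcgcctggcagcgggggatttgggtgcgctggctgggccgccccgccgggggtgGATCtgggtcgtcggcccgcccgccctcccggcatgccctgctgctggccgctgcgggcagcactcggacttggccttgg
Adap2: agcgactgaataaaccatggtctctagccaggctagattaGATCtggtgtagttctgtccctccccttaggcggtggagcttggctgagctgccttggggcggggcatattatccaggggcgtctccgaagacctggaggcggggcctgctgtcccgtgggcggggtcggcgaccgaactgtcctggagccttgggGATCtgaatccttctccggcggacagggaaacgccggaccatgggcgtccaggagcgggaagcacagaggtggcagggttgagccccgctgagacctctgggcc
Psmd11: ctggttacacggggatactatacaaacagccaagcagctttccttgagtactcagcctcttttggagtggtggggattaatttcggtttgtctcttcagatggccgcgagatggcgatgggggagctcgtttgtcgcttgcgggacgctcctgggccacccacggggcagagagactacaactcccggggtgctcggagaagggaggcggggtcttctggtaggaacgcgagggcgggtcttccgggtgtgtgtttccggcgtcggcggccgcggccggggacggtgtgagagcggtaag
5730455P16Rik: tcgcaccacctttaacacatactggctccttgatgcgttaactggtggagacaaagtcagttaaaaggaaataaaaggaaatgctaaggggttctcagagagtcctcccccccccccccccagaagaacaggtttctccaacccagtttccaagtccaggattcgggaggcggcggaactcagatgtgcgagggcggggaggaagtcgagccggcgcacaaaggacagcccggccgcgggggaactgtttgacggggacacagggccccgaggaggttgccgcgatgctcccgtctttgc
The sites of Tmem98 lie 136 bp apart and those of Adap2 156 bp apart, and the deposited fragments at those places are 136 and 156 bp long. The pair in the promoter of Spaca3 is 152 bp apart, as is its fragment. These 3 promoter fragments had unique ends on both sides and 0 reads, but they are too few to be set against the share of covered ends in the stretch. The 3 promoter sequences also hold no GTAC, the site of the second enzyme, and fragments without that site are usually recovered less well. RefSeq promoter entries matched 11 of the 14 genes, and 5 of these 11 held a GATC (a palindrome, so the same on both strands), where 48.0% of all 32851 promoter windows of 300 bases do. There was no entry for Myo1d, Cdk5r1 and Rhbdl3.

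Ends ligated to the Ccl2 promoter were more frequent in this stretch than in the 500 kb just before it. An end is called covered where at least 1 read was counted on it. In the stretch 172 of 2984 ends were covered, 5.76% (exact 95% interval 4.95 to 6.66%), against 1.92% of all 424566 unique ends farther than 5 kb from the viewpoint. In the 500 kb next to it on the side of Ccl2, which lie within Asic2, an acid-sensing ion channel gene of neurons, 50 of 2111 ends were covered, 2.37% (1.76 to 3.11%). The share in the stretch was thus 2.43 times that of the nearer 500 kb (95% interval of the ratio 1.79 to 3.32, counting error only). This 500 kb was chosen after the profile had been seen. The planned comparison, with an equal length on the side of Ccl2, gave a smaller ratio of 1.42 (1.14 to 1.76). Beyond the stretch, in the next 845 kb, 50 of 2929 ends were covered, 1.71% (1.27 to 2.24%), a ratio of 3.38 (2.47 to 4.61). Against ends farther than 10 Mb, of which 1.38% were covered, the ratio was 4.18 (3.61 to 4.85). Neighbouring ends can come from 1 ligation event, and PCR copies of a molecule, which carry no molecular identifier here, cannot be told from separate molecules, so these intervals cover counting error only. The ratio to the next 845 kb was 2.12 where any deposited value above 0, including values that round to 0 reads, counted as covered.

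The contrast with nearer chromatin depends on how much of it is taken. From 20 to 100 kb on the same side 76.3% of ends were covered, and the 50 kb windows from 155 to 455 kb had 9.09 to 20.5%, all above the stretch as a whole. The equal length of 845 kb on the side of Ccl2, from 310 to 1155 kb, includes some of these windows. There 145 of 3566 ends were covered, 4.07% (3.44 to 4.77%), and the ratio was 1.42 (1.14 to 1.76). On the other side of Ccl2, at the same distances, 182 of 3143 ends were covered, 5.79% (5.0 to 6.67%). The ratio to this mirror stretch was 0.995 (0.813 to 1.22), an interval that allows either side to be higher. The sides differ in how they come to this level, since on the higher side the equal length nearer to the promoter had 14.2% of its ends covered (13.0 to 15.5%).

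**Figure D1:**
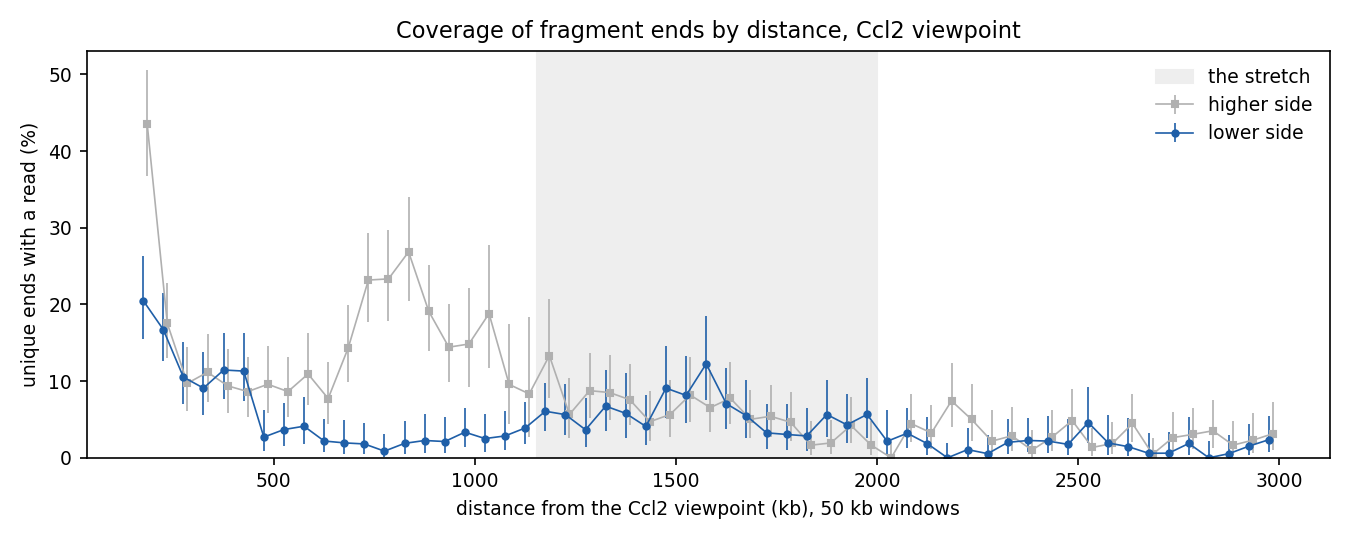
Percentage of unique fragment ends with a read in 50 kb windows from 155 kb outwards on the lower (circles) and higher (squares) side of the Ccl2 viewpoint, with exact 95% intervals and the stretch shaded. On the lower side the 10 windows before the stretch lie between 0.873% and 3.90%, and those in it reach 12.3%.

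In windows of 50 kb the shape of the rise at the near border was not resolved. The 10 windows of the 500 kb before the stretch had 0.873 to 3.90% of their ends covered, with a median of 2.19%. The 16 full windows within the stretch had 2.86 to 12.3%, with a median of 5.64%, and 12 of the 16 lay above the highest of the 10. The 20 windows from 2005 kb outwards had 0 to 4.61%, with a median of 1.80%. Directly at the near border, 9 of 231 ends were covered in the last 50 kb outside, 3.90% (1.80 to 7.27%), and 15 of 247 in the first 50 kb inside, 6.07% (3.44 to 9.82%). At the far border the shares were 8 of 174 ends inside, 4.60% (2.01 to 8.86%), and 4 of 142 outside, 2.82% (0.773 to 7.06%). These intervals overlap at both borders, so the data do not fix where the better covered stretch begins or ends to within 50 kb.

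**Figure D2:**
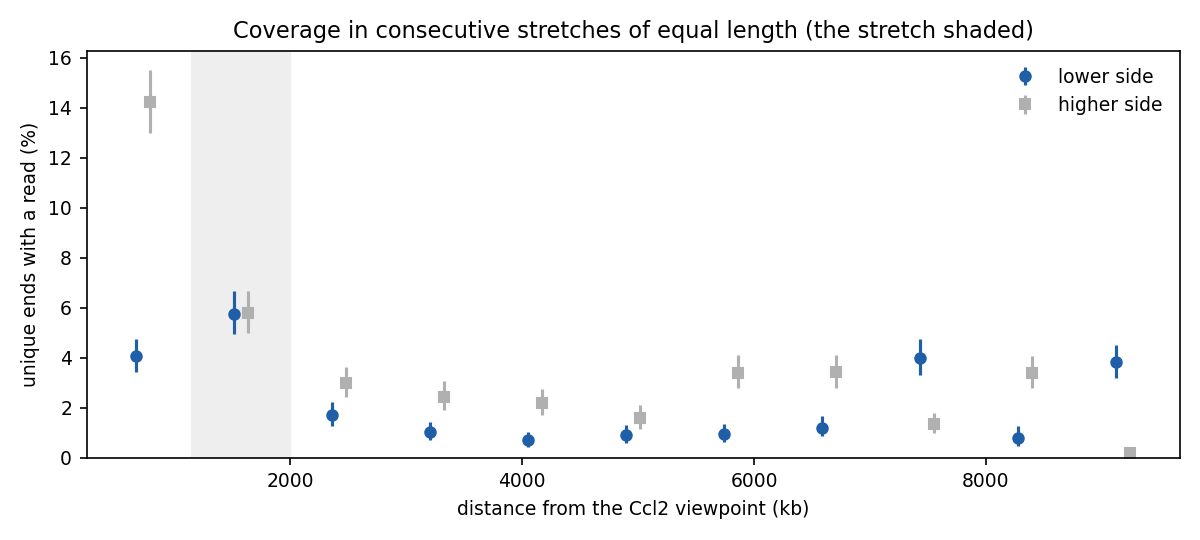
Percentage of unique ends with a read in consecutive 845 kb stretches on both sides of the Ccl2 viewpoint, from 310 kb to 9605 kb, with exact 95% intervals and the distance of the stretch shaded. At that distance the lower side stands at 5.76% and the higher side at 5.79%, and the 9 lower-side stretches beyond range from 0.699% to 3.99%.

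Set against chromatin farther from the viewpoint, no equal piece reached its share. Chromosome 11 was divided outwards from 2000 kb on each side into 134 pieces of 845 kb, of which 0 had a share of covered ends at or above that of the stretch. Their shares ran from 0.0726 to 5.14%, with a median of 1.25%. On the lower side the 9 pieces up to 10 Mb had a median of 1.04% and a highest value of 3.99%, the latter between 7070 and 7915 kb. These pieces are a description of 1 library, and all lie farther from the viewpoint than the stretch. The mirror, at 5.79%, and the equal length nearer to Ccl2 on the higher side, at 14.2%, are not among them.

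The stretch differed in how many ends had reads, and less in how many reads a covered end had. Covered ends of the stretch held 1 to 427 reads, with a median of 47 and quartiles of 17.25 and 102.75. The medians were 71 in the 500 kb nearer to Ccl2, 63.5 in the equal stretch beyond, 49.5 in the mirror and 45 beyond 10 Mb. Of the 172 covered ends, 33 had fewer than 10 reads and 49 had 100 or more. All its ends together held 12973 reads, 1.44% of the 901507 reads farther than 5 kb from the viewpoint (1.41 to 1.46%). That is 15.4 reads per kb (exact Poisson interval 15.1 to 15.6), against 7.84 (7.59 to 8.09) in the nearer 500 kb, 4.19 (4.05 to 4.33) in the stretch beyond and 16.6 (16.3 to 16.9) in the mirror. The single highest end accounted for 3.29% of these reads and the 10 highest for 22.3%, so the signal was spread over many ends. The intervals of reads count each read as independent, though reads on the same end can be PCR copies. They are therefore too narrow, and they do not show that the mirror stood above the stretch.

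Coverage differed by the kind of fragment in each of these regions. In 4C-seq a DpnII fragment without a site of the second cutter is known as a blind fragment, and blind fragments are usually recovered less well. A fragment was taken to hold a second site where the deposited distance from its end to the nearest second site is shorter than the fragment, and to be blind otherwise. In the stretch 126 of 1378 ends on fragments with a second site were covered, 9.14% (7.67 to 10.8%), and 46 of 1606 ends on blind fragments, 2.86% (2.10 to 3.8%). In the nearer 500 kb the shares were 4.12% (2.93 to 5.61%) and 1.01% (0.523 to 1.76%), and in the stretch beyond 2.63% (1.84 to 3.63%) and 0.940% (0.527 to 1.55%). The stretch was above both neighbours for either kind, and over fragments with a second site alone the ratios were 2.22 (1.56 to 3.16) to the nearer 500 kb and 3.48 (2.41 to 5.03) to the stretch beyond. In the mirror the shares were 10.7% (9.08 to 12.5%) and 2.20% (1.58 to 2.99%).

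**Figure D3:**
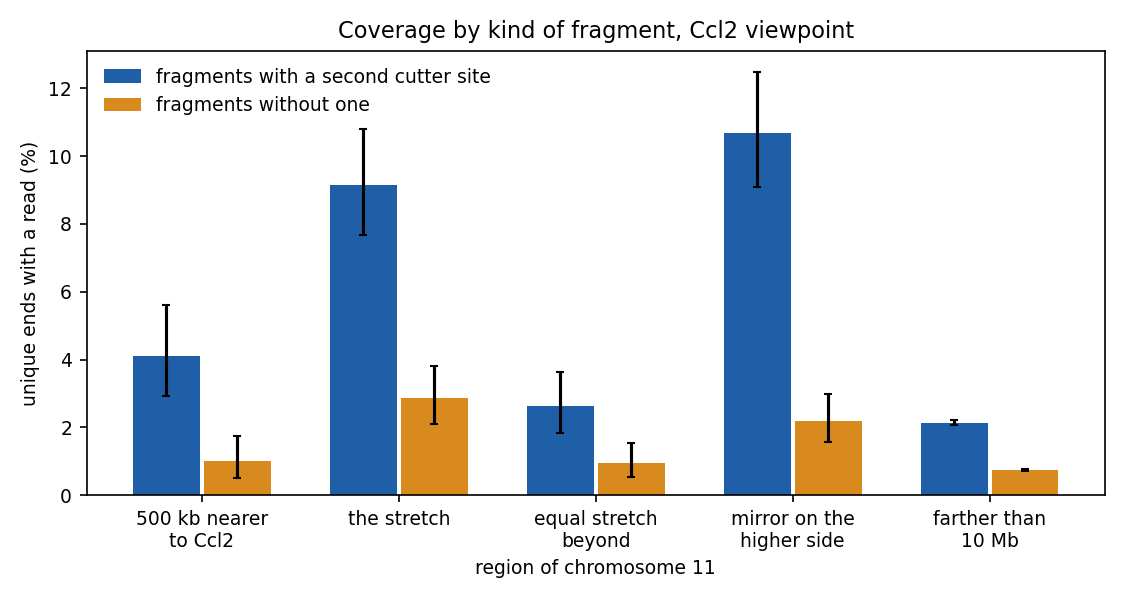
Percentage of unique ends with a read on DpnII fragments that hold a second cutter site and on those that do not, in 5 regions of the Ccl2 profile, with exact 95% intervals. Fragments with a second site stand at 9.14% in the stretch and at 4.12% and 2.63% in the chromatin nearer and beyond.

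Coverage was also lower at a longer distance from the end to the second cutter site. In the stretch 7.37% of ends under 200 bp from it were covered (5.83 to 9.16%), 6.45% from 200 to 400 bp, 5.06% from 400 to 800 bp and 3.07% from 800 bp upwards (1.83 to 4.80%). In the nearer 500 kb the same classes had 3.91%, 2.39%, 2.03% and 0.640%. Covered ends lay on longer fragments (median 410 bp) than uncovered ones (median 289.5 bp), as in the nearer 500 kb (427.5 and 312 bp). The 3′ and 5′ ends were alike, with 87 of 1496 and 85 of 1488 covered. Of 1185 fragments with unique ends on both sides, 119 had 1 covered end and 4 had both. The fragment with both ends covered and the most reads lies at 1589.1 kb in Psmd11, with 232 and 85 reads.

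**Figure D4:**
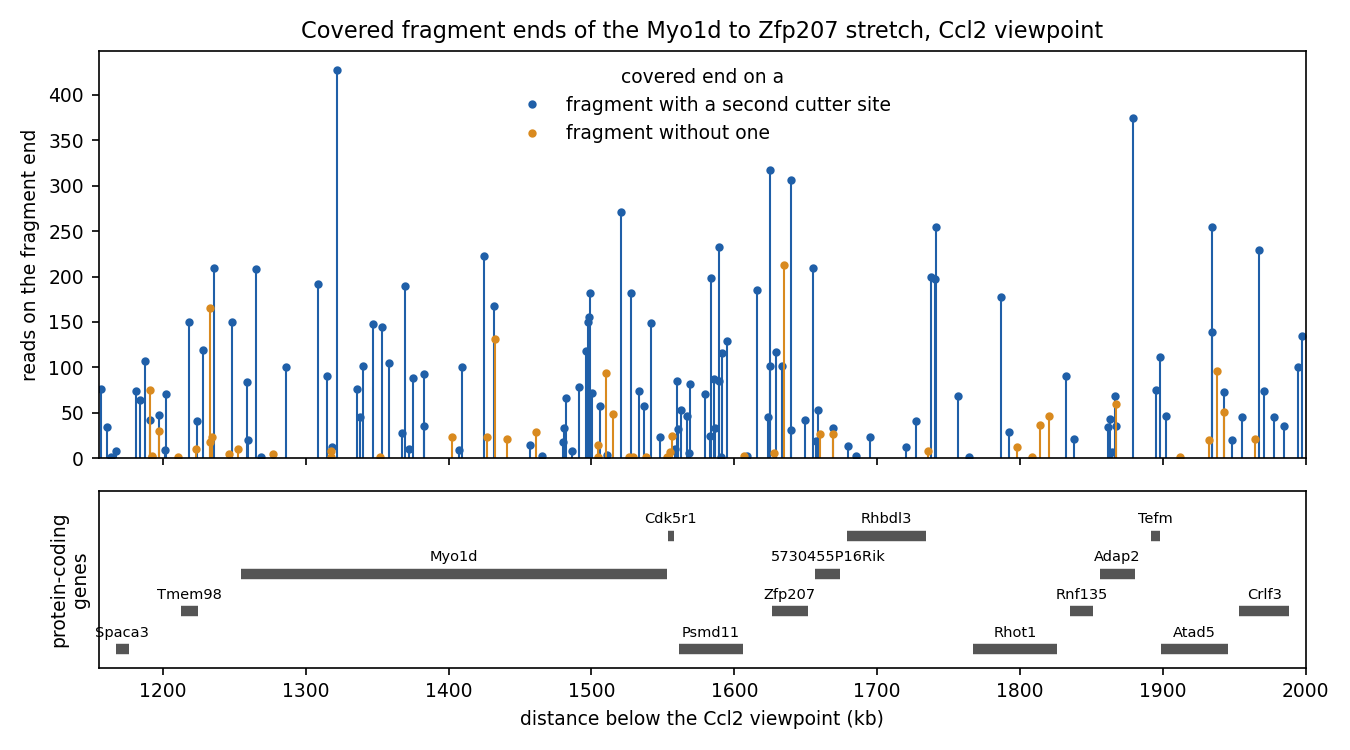
Reads on each of the 172 covered ends of the stretch against distance below the Ccl2 viewpoint, coloured by whether the fragment holds a second cutter site, above a map of the 14 protein-coding genes. Covered ends with few and with many reads occur along the stretch, and the end with 427 reads lies within Myo1d.

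Within the stretch the best covered part was the interval from Cdk5r1 to Zfp207, on the far side of Myo1d. It runs from 1552.6 to 1651.4 kb, and 33 of its 328 ends were covered, 10.1% (7.03 to 13.8%), with 28.3 reads per kb. The 99.6 kb between the near border and Myo1d, which hold Spaca3 and Tmem98, had 27 of 460 ends covered, 5.87% (3.90 to 8.43%). The interval after Zfp207 with 5730455P16Rik and Rhbdl3 had 11 of 284, 3.87% (1.95 to 6.82%). The interval from Rhot1 to the far border had 34 of 821, 4.14% (2.88 to 5.74%), with 11.2 reads per kb. The 32.6 kb without a protein-coding gene between Rhbdl3 and Rhot1 had 6 of 110 ends covered, 5.45% (2.03 to 11.5%), and 22.4 reads per kb, with 254, 199, 197, 69, 8 and 2 reads on the covered ends. The error interval of the part from Cdk5r1 to Zfp207 thus lay above those of the parts with 5730455P16Rik and Rhbdl3 and from Rhot1 outwards, and overlapped those of the other parts. The borders of these parts were set after the profile had been seen.

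Among single genes, Psmd11 stood highest. It encodes a subunit of the lid of the 26S proteasome, the complex that degrades ubiquitin-tagged proteins. Over its 44.6 kb 14 of 127 ends were covered, 11% (6.16 to 17.8%), with 232, 198, 129, 116, 87, 85, 82, 71, 53, 47, 33, 25, 6 and 1 reads. Its signal came from many ends, and its interval was the only one among the 14 genes that did not include the 5.76% of the whole stretch. Psmd11 was picked as the highest of the 14, and among 14 such intervals counting error alone can leave 1 outside. Its covered ends lie between 1562.8 and 1594.6 kb, in the body of the gene. At its start, 1606.1 kb from the viewpoint, 2 of 59 ends were covered within 10 kb, with 6 reads in all, and the nearest of them, 0.46 kb away, had 3 reads.

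Zfp207, which encodes a zinc finger protein that binds spindle microtubules and kinetochores, had 7 of 93 ends covered, 7.53% (3.08 to 14.9%). They held 306, 213, 117, 102, 42, 31 and 6 reads. This gave 32.3 reads per kb, the highest density among the protein-coding genes, with a single end holding 306 of its 817 reads. Its neighbour 5730455P16Rik had 5 of 53 ends covered, 9.43% (3.13 to 20.7%), with 53, 33, 27, 27 and 19 reads. One of these ends, with 19 reads, is on the 886 bp fragment that holds its start, the only start fragment with a read among the 11 genes with a promoter entry. That fragment holds a second cutter site, as do the start fragments of Psmd11, Rhot1 and Rnf135, while those of the other genes with an entry are blind. The start of Zfp207 lay 2.24 kb from the nearest covered end. Cdk5r1, the activator of the neuronal kinase Cdk5, had 2 of 27 ends covered, with 25 and 7 reads.

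Myo1d, which encodes a class I myosin that links membranes to actin, fills 297.9 kb and holds more of the ends than any other gene. In it 61 of 981 ends were covered, 6.22% (4.79 to 7.92%), with 1 to 427 reads and a median of 58. The part nearer to Ccl2 had 26 of 477 ends covered, 5.45% (3.59 to 7.88%), and the equal part farther away 35 of 504, 6.94% (4.88 to 9.53%). These intervals overlap, so no slope along the gene was resolved. Its end with 427 reads, at 1321.5 kb (position 80526673), was the highest of the stretch.

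Nearer to Ccl2, Spaca3, a sperm acrosome protein gene, had 0 of 56 ends covered, which allows a share of up to 6.38% by the exact interval. A fragment of 578 bp at its border, with its centre at 1166.88 kb and counted outside the gene, had 8 reads. Tmem98, a transmembrane protein gene, had 3 of 56 ends covered, 5.36% (1.12 to 14.9%), with 150, 41 and 10 reads, and the nearest covered end lay 0.573 kb from its start. Spaca3 and Tmem98 have too few ends to be told apart.

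On the far side, Rhbdl3, a rhomboid protease family gene, had 5 of 195 ends covered, 2.56% (0.838 to 5.88%), with 41, 24, 14, 12 and 3 reads. Rhot1, which encodes the mitochondrial transport GTPase Miro1, had 6 of 222, 2.70% (0.998 to 5.79%), with 178, 47, 37, 29, 12 and 1 reads. Rhbdl3 and Rhot1 had the lowest shares among genes with more than 100 ends. Rnf135, a ubiquitin ligase of the RIG-I antiviral pathway, had 1 of 56 ends covered, with 21 reads, and 0 of 78 ends within 10 kb of its start, which allows up to 4.62%. With several-copy ends included, the share of Rnf135 was 5.88% (1.63 to 14.4%).

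The last genes before Suz12 stood between these levels. Adap2, an Arf GTPase-activating protein gene, had 7 of 101 ends covered, 6.93% (2.83 to 13.8%), with 374, 69, 60, 43, 36, 35 and 7 reads. The end with 374 reads, the second highest of the stretch, lay inside the gene, 1.48 kb from its start, while the 156 bp fragment between the cut sites of the promoter sequence had 0 reads. The former is on a fragment with a second cutter site and the latter fragment is blind, so the 2 are not alike in recovery. Tefm, a mitochondrial transcription elongation factor gene, had 1 of 18 ends covered, with 75 reads. Atad5, which encodes a factor that unloads PCNA from DNA, had 8 of 177, 4.52% (1.97 to 8.71%), with 254, 139, 96, 73, 51, 47, 20 and 1 reads. Crlf3, a cytokine receptor-like gene, had 6 of 112, 5.36% (1.99 to 11.3%), with 229, 74, 45, 45, 36 and 21 reads.

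**Figure D5:**
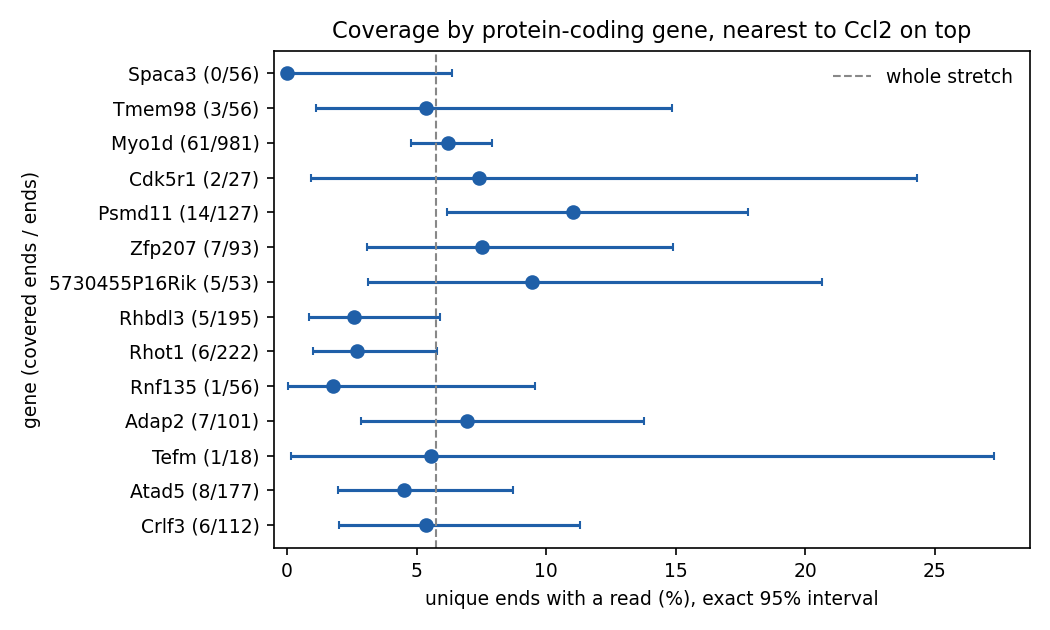
Percentage of unique ends with a read in each of the 14 protein-coding genes, nearest to Ccl2 on top, with exact 95% intervals, and the level of the whole stretch as a dashed line. Psmd11 at 11% has an interval above the line, and the other 13 intervals include it.

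For the 11 genes with a promoter entry, the share of covered ends was not higher around the start. Within 10 kb of the 11 starts 28 of 681 ends were covered, 4.11% (2.75 to 5.89%), and 144 of 2303 ends farther away, 6.25% (5.30 to 7.32%). Inside protein-coding genes 126 of 2274 ends were covered, 5.54% (4.64 to 6.56%), and between them 46 of 710, 6.48% (4.78 to 8.55%). The share near starts was thus the lower of the pair, with overlapping intervals, and those of genes and of the gaps between them overlap as well. Most start fragments of the 11 genes are blind, and in the stretch 2.86% of ends on blind fragments were covered, against 9.14% on the others. The shares near and far from starts were not split by the kind of fragment, so they do not show whether starts were contacted less. The starts of Myo1d, Cdk5r1 and Rhbdl3 are not placed here, so ends near them count as farther away. With both borders of these 3 genes counted as starts, an alternative chosen after seeing the data, the shares were 51 of 987 ends, 5.17% (3.87 to 6.74%), and 121 of 1997, 6.06% (5.05 to 7.20%).

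Some windows in the stretch exceeded the signal expected at their distance, but their share was below that of both sides together. The expectation was a straight line through the read density against distance, both in log10, from 20 to 2000 kb with the sides pooled, and its slope was -1.35. In windows of 10 kb moved by 5 kb, 7 of 168 windows reached 3 times the expectation with at least 5 covered ends, against 6.2% of 790 windows on both sides from 20 to 2000 kb. The share in the stretch was 4.17%, below that background. On the lower side from 20 kb up to the stretch 0 of 226 windows passed, and in the mirror 8 of 168. The stretch as a whole held 1.65 times the reads of this pooled line, so its windows passed with a smaller rise above their surroundings. The 845 kb before the stretch held 0.397 times the reads of the line, so a window there had to rise further above its surroundings to pass. Those nearer windows were not counted against a line of the lower side alone. With a line fitted to the lower side alone, and also with any deposited value above 0, the count in the stretch was 11. A further 23 windows of the stretch passed the fold with fewer than 5 covered ends, and 25 had no covered end.

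The 7 windows form 4 regions. The region at 1490 to 1505 kb (positions 80343194 to 80358193), within Myo1d, had 8 of 45 ends covered and 772 reads, 5.36 times the expectation, with 182, 156, 150, 118, 78, 72, 15 and 1 reads. Of these, 5 ends lie between 1496.3 and 1500.1 kb. The region at 1580 to 1595 kb (80253194 to 80268193), within Psmd11, had 9 of 52 ends covered and 906 reads, 6.81 times the expectation. The region at 1620 to 1635 kb (80213194 to 80228193), which reaches into the side of Zfp207 that faces Ccl2, had 7 of 71 ends covered and 902 reads, 7.01 times, of which 1 end held 35.1%. The region at 1860 to 1870 kb (79978194 to 79988193), within Adap2, had 6 of 44 ends covered and 250 reads, 3.50 times. Counted by covered ends and not by reads, these 4 stood at 2.77, 3.28, 2.60 and 3.74 times the expectation. Against a monotone decay they stood at 2.88, 3.38, 3.37 and 2.40 times, so only the region in Psmd11 passed 3 times under each of these expectations.

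The level of the whole stretch against an expectation depended on the expectation. It held 1.65 times the reads of the pooled line, 3.41 times those of a line fitted to the lower side alone and 1.02 times those of a monotone decay of both sides, and 1.08 times the covered ends of the line for covered ends. The nearer 500 kb stood below each, at 0.397, 0.740, 0.335 and 0.336. The stretch was the higher of the pair each time, but this was fixed in advance. None of these expectations rises with distance, and the stretch already had more reads and more covered ends per kb.

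The longest runs without a covered end lay on the far side too. The longest spans 25.3 kb from 1695.0 to 1720.3 kb within Rhbdl3, where 0 of 94 ends had a read, which allows a share of up to 3.85% by the exact interval. The next runs are 23.5 kb across Rnf135 and the edge of Adap2 (0 of 84 ends, up to 4.30%) and 22.5 kb in and before Rhot1 (0 of 74 ends, up to 4.86%). The median gap between covered fragments was 3.65 kb.

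At the same distances from Jun, in the other library and on chromosome 4, 94 of 2492 ends were covered on the lower side, 3.77% (3.06 to 4.60%), and 57 of 2593 on the higher side, 2.20% (1.67 to 2.84%), where 1.91% of all its unique ends were. Their reads per kb were 3.78 and 2.75, and the median reads per covered end 20 and 24. The libraries differ in viewpoint, chromosome and depth (1098887 reads farther than 5 kb for Jun), so these values are set side by side only.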

How the data were processed

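The deposited tables give, for each DpnII fragment end of the viewpoint chromosome in 16 bp bins, an estimated count of reads made by the authors, whose column sums show no scaling to a common depth. Per the file headers, they also give a multiplicity, read here as copies in the genome, and fragment lengths. Because of an empty header cell, each name was matched to the column before it. The submitters' processing notes give mm9 as the build. Aligner and weighting of reads: not given in the sources used here. Per the labels' protocols, cells were fixed with 2% formaldehyde for 10 min, and 200 ng of template went into 8 pooled PCR reactions.

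Estimated counts were rounded to whole reads, ends with several copies and ends within 5 kb of the viewpoint left out, and shares given with exact (Clopper-Pearson) 95% intervals and ratios with log (Katz) intervals, in Python 3.11.15 with scipy 1.17.1, pandas 2.3.3 and scikit-learn 1.9.0. There was no test between samples (1 library per viewpoint, so the spread between cultures is unknown). The line used 10 bins of equal log width. Code was tested on simulated data. The text names every protein-coding gene placed in the stretch, each region past 3 times the expectation and the 3 longest runs without a covered end; of the 10 ends with the most reads it gives those that a gene turns on. Members and lists were chosen with earlier results of these data known. The nearer 500 kb, the gene intervals and the equal pieces of the chromosome were added after seeing the data. Alternatives changed copies, short fragments, rounding, the read minimum, borders, windows and expectation.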

Additional observations from a re-analysis of the deposited data

Results flagged for a closer look

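Ends with several copies in the genome, which the report does not use, also had reads in the stretch. Of 434 such ends 34 had a read, 7.83% (exact 95% interval 5.49 to 10.8%), with 2059 reads. They are given here because they lie outside the values used above. Farther than 10 Mb from the viewpoint, 3.32% of such ends had a read (3.17 to 3.48%). A read on such an end cannot be assigned to 1 place.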

How the results depend on the processing

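The ratio of covered ends to the nearer 500 kb stayed between 2.22 and 2.52 under 9 alternatives, that to the equal nearer stretch between 1.33 and 1.60, and that to the mirror between 0.855 and 1.04. The ratio to the equal stretch beyond ranged from 2.12 to 3.64 and that to ends farther than 10 Mb from 3.14 to 4.29, with the lowest of each where any deposited value above 0 counted. The percentage of covered ends was 7.15% without fragments under 200 bp, 7.17% with any value above 0, 4.66% with at least 10 reads and 9.14% on fragments with a second cutter site, and it was within its interval under the other 5. The percentage of library reads was 1.52% with several-copy ends, 1.54% without fragments under 200 bp, 1.29% with borders 50 kb inward and 1.39% without its highest end. Windows past the threshold numbered 11 with any value above 0, with the line of the lower side and with 20 kb windows moved by 10 kb (a different set of windows), and 5 to 9 otherwise. Without the 50 kb with the highest share, 5.41% of ends were covered. The number of genes with a covered end was 13 of 14 with several-copy ends and with at least 5 reads, and the 28 values for single genes under these settings moved by less than their intervals, though Rnf135 went from 1.79% to 5.88% with several-copy ends. The second-cutter subset, the omitted 50 kb, the borders counted as starts and the nearer 500 kb were chosen after seeing the data. No paired analysis was possible because the result comes from no test. The number of ends limits single genes: there are 18 to 222 in each outside Myo1d, and 13 of 14 intervals include the share of the stretch.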
